A study of Mus musculus with 474 samples.

Results

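The genes described here are 10 genes of the autophagy pathway. They were chosen by name and not by their values, although earlier results of these data were known. They comprise the ATG8 family genes Map1lc3a, Map1lc3b, Gabarap, Gabarapl1 and Gabarapl2 and the cargo receptor genes Sqstm1 and Nbr1. The others are Rb1cc1, which encodes the scaffold FIP200 of the initiation complex, and the transcription factor genes Tfeb and Tfe3. These members are 10 of the 55450 genes in the count tables. Of the members, 9 had counts and Map1lc3b had none in any cell. The cells were single daughters of haematopoietic stem cells (HSCs), the cells that sustain blood formation, from the bone marrow of wild type male C57BL/6JRj mice aged 12 to 19 weeks, and no group carried a transgene or a treatment in the labels. Each daughter was followed by time-lapse imaging through the first division of its mother in culture, picked with a micromanipulator and sequenced with Smart-seq2, a plate method that reads whole transcripts of 1 cell per well. The cells came from 9 culture experiments with 28 to 77 cells each, 5 in sequencing run 4 and 4 in sequencing run 5. In 11 to 38 divisions per experiment both daughters were sequenced, 1 labelled high and 1 labelled low for having received more or fewer lysosomes than its sister. The labels do not state how this was decided. A further 68 cells had no sequenced sister.

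Macroautophagy encloses cytoplasmic material in a double membrane, the autophagosome, which then fuses with lysosomes. ATG8 proteins, which comprise the LC3 and GABARAP subfamilies, are attached to lipids of the growing membrane, and receptors such as p62, the product of Sqstm1, and NBR1 bind both ubiquitinated cargo and ATG8 proteins. TFEB and TFE3 are transcription factors of the MiT/TFE family that are held in the cytoplasm when mTORC1 is active at the lysosome and that switch on lysosome and autophagy genes, in part through the E-box CACGTG within the CLEAR motif. Autophagy is known to be needed for the maintenance of adult HSCs. Transcript levels do not measure autophagic flux.

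The median cell had 846198 counts on genes (lowest 76735, highest 2444858) and 9867.5 genes with a count. Median totals per experiment lay between 539043 in experiment 77 and 1233874 in experiment 68. The median share of added spike-in RNA was 0.0259% for cells of run 4 and 0.604% for those of run 5. Of 8 HSC marker genes, 7 had counts, and the 8 markers were found in a median of 92.3% of cells. The span of the HSC marker without counts lies wholly under other genes. The 6 lymphoid markers were found in a median of 0.316% of cells and the 6 erythroid markers in 5.70%, with Hbb-bt in 63.1%. Medians were 3.69% for myeloid, 4.64% for macrophage and dendritic, 0.633% for mast cell and basophil and 2.74% for stromal and endothelial markers. Single markers of these 4 lists were found widely, with Prtn3 in 74.1%, Cd68 in 58.4%, Gata2 in 99.4% and Pecam1 in 93.7% of cells. The 6 megakaryocyte markers, some of which HSCs also express, were found in a median of 56.2% of cells. No 2 cells had identical counts.

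Map1lc3b (ENSMUSG00000031812), a gene of the LC3 subfamily, has no usable value in these tables. It was at 0 in every cell. A count of 0 in every cell would allow the gene in up to 0.633% of cells by counting error alone, but the gene models show another limit. On the GRCm38 build Map1lc3b lies on chromosome 8 from 121590361 to 121598760, wholly inside the span of Gm20388 (119910841 to 124345722, same strand), which had 23942 counts. All 13127 genes whose span is wholly covered by spans of other genes were at 0 in every cell, and 1287 of these are protein-coding genes inside the span of 1 other gene. Among the 20664 other protein-coding genes, 3200 (15.5%) were at 0. Of the genes with all exons under other genes but with some intron free, only 12.5% were at 0. The 0 of Map1lc3b is therefore given as a value of these tables and not as an absence of the transcript.

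The same counting touches 3 other members in part. Other genes lie over 28.3% of the exonic bases of Gabarapl1, 22.3% of those of Sqstm1 and 3.80% of those of Rb1cc1. Levels per length were computed as counts per 1000000 gene counts of the cell (CPM), averaged over the cells of each experiment and then over the 9 experiments, and divided by the kilobases of exon under no other gene. Per length of exon Sqstm1 had the highest level, 207.1 ± 50.6 CPM per kilobase (SD, n = 9 experiments). Gabarap had 120.5 ± 26.5 and Gabarapl1 had 100.97 ± 13.96 CPM per kilobase. Map1lc3a stood at 12.6 ± 2.64, Gabarapl2 at 10.8 ± 2.40 and Nbr1 at 10.5 ± 1.20 CPM per kilobase. Rb1cc1 had 6.86 ± 0.613, Tfe3 3.89 ± 0.570 and Tfeb 3.60 ± 0.728 CPM per kilobase. Parts of this order turned when the divisor was the whole gene span under no other gene, introns included, which the zeros described above make a relevant length. Per kilobase of span Gabarap had 58.3 ± 12.8 and Sqstm1 50.4 ± 12.3 CPM, so that Gabarap came first, and Tfe3, at 2.85 ± 0.417, came above Rb1cc1, at 1.49 ± 0.133.

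**Figure D1:**
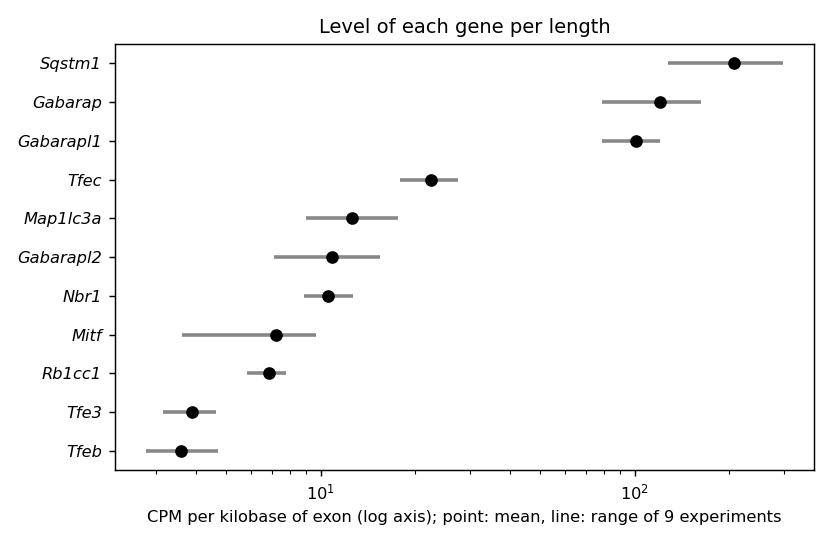
Level of each gene per length (horizontal log axis, CPM per kilobase of exon under no other gene) for 9 members and the related genes Tfec and Mitf. Points are means over 9 experiments and lines run from the lowest to the highest experiment, and the lines of Sqstm1, Gabarap and Gabarapl1 lie to the right of all the others.

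The order of the levels per kilobase of exon was the same in all experiments at some steps and not at others. Sqstm1 was above Gabarap in 9 of 9 experiments, although the ranges over experiments overlapped, and Gabarap was above Gabarapl1 in 8 of 9. Gabarapl1 and Map1lc3a did not overlap, so the GABARAP subfamily genes Gabarap and Gabarapl1 lay above the LC3 gene Map1lc3a in every experiment, and their means lay above it per kilobase of span too, at 58.3, 18.6 and 8.38 CPM. Map1lc3a against Gabarapl2, and Gabarapl2 against Nbr1, kept their order in 6 of 9 experiments each and overlapped. Rb1cc1 was above Tfe3 in 9 of 9 experiments without overlap. Tfe3 and Tfeb overlapped and kept their order in 8 of 9. The other MiT/TFE genes were counted too, and they are named here after their values were seen: Tfec had 22.5 ± 3.31 and Mitf 7.21 ± 1.88 CPM per kilobase. Tfec lay above Map1lc3a in 9 of 9 experiments without overlap, and it had the highest level of the 4 MiT/TFE genes per kilobase of exon. Per kilobase of span Tfe3, at 2.85 CPM, was above Tfec, at 1.94 CPM, and Tfeb was at 0.368 CPM.

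Among the receptors, Sqstm1 (ENSMUSG00000015837, chromosome 11, 50199366 to 50210827, minus strand) had counts in every cell. Its level ran from 3.06 CPM in the lowest cell through a median of 464.9 to 2617 CPM in the highest, and the coefficient of variation over cells was 0.636. The cells of each experiment were also summed and given as CPM of the sum, without TMM factors (a normalization between libraries). In these sums Sqstm1 was lowest in experiment 60 with 328.1 CPM and in experiment 72 with 382.7 CPM. It was highest in experiment 77 with 729.7 CPM. Experiments 60 and 72 belong to run 5, and their median totals, 580670 and 1131335 counts, lay on both sides of the median over all cells. Nbr1 (ENSMUSG00000017119, chromosome 11, 101552149 to 101581951, plus strand) had counts in 98.3% of cells (Wilson 95% interval 96.7 to 99.1), with a median of 61.4 CPM and a highest cell at 348.5 CPM. Its sums lay within 62.5 CPM in experiment 69 and 79.3 CPM in experiment 60. Experiment 60, the lowest for Sqstm1, thus had the highest sum for Nbr1. Experiment 77, the highest for Sqstm1, was close to it for Nbr1, at 78.4 CPM. As a mean over cells, Nbr1 was higher in experiment 77, at 87.1 CPM, than in experiment 60, at 81.2 CPM.

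Among the ATG8 genes, Gabarap (ENSMUSG00000018567, chromosome 11, 69991143 to 69994951, plus strand) varied least between cells. It had counts in every cell, from 28.03 CPM through a median of 209.2 to 615.2 CPM, with a coefficient of variation of 0.428. Its sums were 148.3 CPM in experiment 60 and 148.8 CPM in experiment 72, against 212.8 to 292.2 CPM in the 5 experiments of run 4 and 238.5 and 248.5 CPM in experiments 68 and 73 of run 5. Experiments 60 and 72 were also the lowest for Sqstm1, Gabarapl1 and Gabarapl2. Of the variance of log2(CPM + 1) over cells, 23.2% lay between experiments for Gabarap, against 15.1% for Sqstm1, 10.1% for Gabarapl2 and 5.83% for Gabarapl1. The median over the 11745 genes with a count in at least 20% of cells was 3.44%. For Map1lc3a, Nbr1, Rb1cc1, Tfeb and Tfe3 the share was between 1.07% and 1.90%.

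Gabarapl1 (ENSMUSG00000030161, chromosome 6, 129533160 to 129542346, plus strand) had counts in all cells, with a median of 134.98 CPM and a highest cell at 421.5 CPM. Its sums ran from 114.5 CPM in experiment 60 to 169.5 CPM in experiment 77. Gabarapl2 (ENSMUSG00000031950, chromosome 8, 111940703 to 111953612, plus strand) had counts in 98.5% of cells (96.98 to 99.28), with a median of 22.5 CPM. Its sums ran from 17.1 CPM in experiment 60 to 33.96 CPM in experiment 77, the same lowest and highest experiments as for Gabarapl1. Map1lc3a (ENSMUSG00000027602, chromosome 2, 155276297 to 155278073, plus strand) had counts in 77.6% of cells (73.7 to 81.2) and a median of 10.8 CPM, which in the median cell was 8 counts. Its share of cells with a count, with every cell thinned to 300000 counts, lay between 66.9% and 81.02% over the experiments. At such depths a cell without a count cannot be told from a cell with a low level.

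Rb1cc1 (ENSMUSG00000025907, chromosome 1, 6206197 to 6276648, plus strand) had counts in 99.4% of cells (98.2 to 99.8) and a median of 91.2 CPM. Its sums lay between 83.6 CPM in experiment 72 and 110.9 CPM in experiment 77. Tfeb (ENSMUSG00000023990, chromosome 17, 47737030 to 47792419, plus strand) had counts in 81.9% of cells (78.1 to 85.1) and a median of 11.5 CPM, while its highest cell reached 253.6 CPM. Tfeb had the widest spread of the members, with a coefficient of variation of 1.35 over cells. Tfe3 (ENSMUSG00000000134, chromosome X, 7762560 to 7775202, plus strand) had counts in 89.9% of cells (86.8 to 92.3) and a median of 27.7 CPM. The medians of Tfeb and Tfe3 in a cell were 8 and 21 counts.

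**Figure D2:**
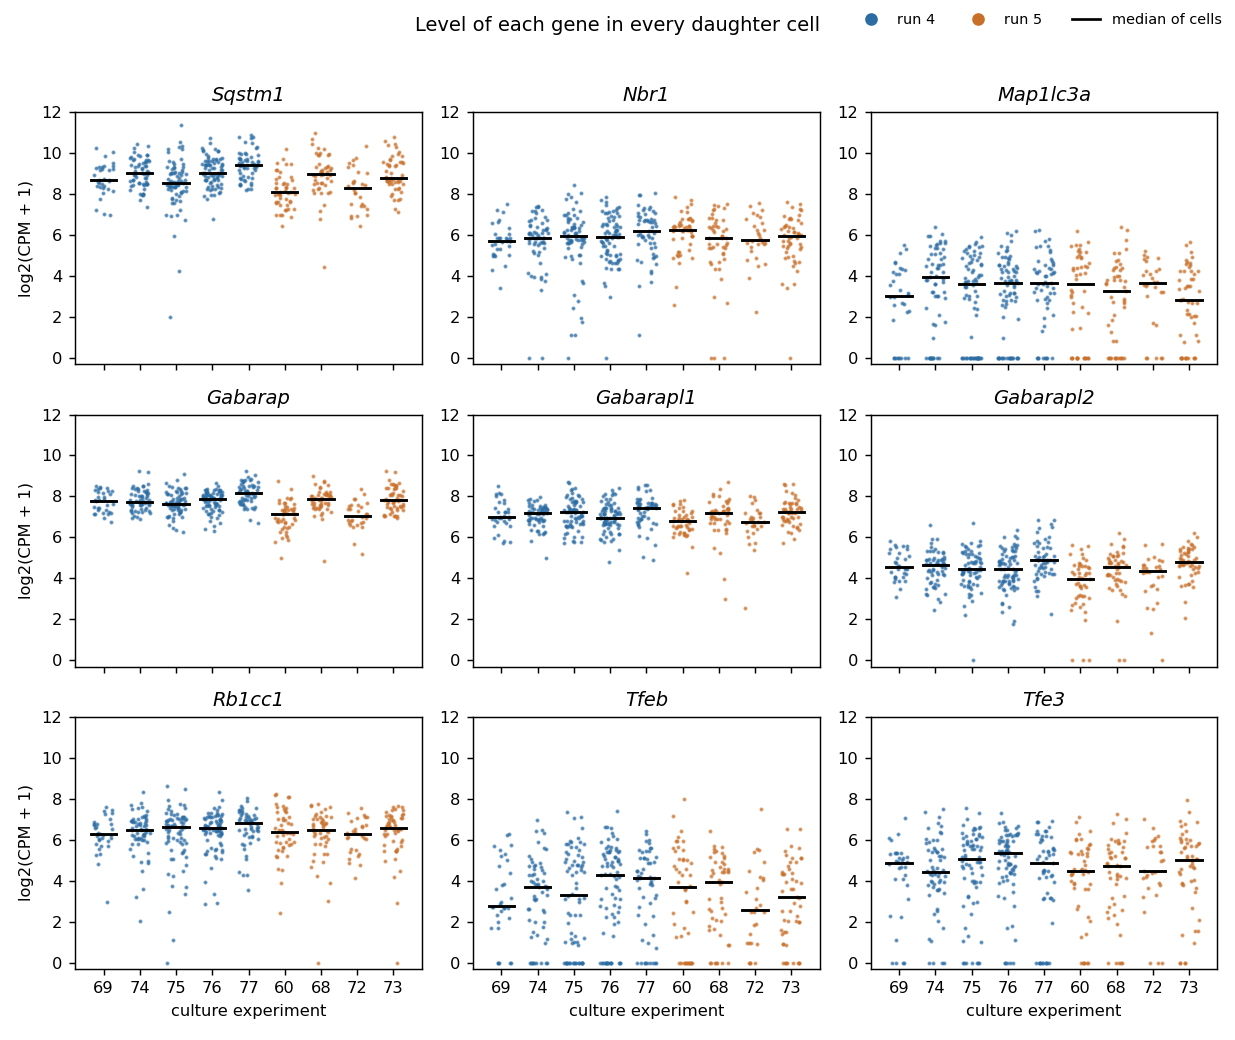
Level of 9 genes in each cell as log2(CPM + 1) (vertical axis), by culture experiment (horizontal axis), with run 4 in blue, run 5 in orange and black bars at the median of the cells. Gabarap, Gabarapl1 and Sqstm1 form narrow bands without cells at 0, with experiments 60 and 72 low, while Map1lc3a, Tfeb and Tfe3 have many cells at 0.

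To show what lies just upstream of annotated starts of these genes, promoter windows were taken from RefSeq on GRCm38.p6. For 8 of the 10 members there were 12 windows, and Map1lc3a and Rb1cc1 had no entry. Some of these starts lie inside the gene spans given above. A window of Nbr1, a window of Tfe3 and the Tfeb windows not printed below thus lay wholly inside the gene. The window of Gabarap lay mostly inside it. The 250 bases before each annotated start were searched for the E-box CACGTG on both strands, the core of the motif that TFEB binds. None of the 12 windows held it, against 6.02% of the 32851 windows of all genes, and no match says only that these letters are not in these windows. GGGCGG or its reverse complement CCGCCC, the core of the GC box, was in 8 of the 12 windows, against 32.7% of all windows. They belonged to Gabarapl1, Gabarapl2, Map1lc3b, Sqstm1, Tfe3 and Tfeb, with all 3 windows of Tfeb among them. CCAAT on either strand was in 4 of the 12 windows, those of Nbr1 and Tfe3, against 33.8% of all windows. The windows of Sqstm1 (chr11:50210821-50211070, minus strand), Gabarapl2 (chr8:111940453-111940702, plus strand) and 1 of 3 for Tfeb (chr17:47736787-47737036, plus strand) are printed as the receptor with the highest level, an ATG8 gene and the factor itself, with GC boxes in capitals.
Sqstm1: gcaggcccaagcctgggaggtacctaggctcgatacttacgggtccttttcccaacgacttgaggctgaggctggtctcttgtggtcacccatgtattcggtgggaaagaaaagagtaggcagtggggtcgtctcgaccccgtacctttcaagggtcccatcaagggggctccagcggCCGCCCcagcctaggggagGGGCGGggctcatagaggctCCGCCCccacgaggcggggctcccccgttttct
Gabarapl2: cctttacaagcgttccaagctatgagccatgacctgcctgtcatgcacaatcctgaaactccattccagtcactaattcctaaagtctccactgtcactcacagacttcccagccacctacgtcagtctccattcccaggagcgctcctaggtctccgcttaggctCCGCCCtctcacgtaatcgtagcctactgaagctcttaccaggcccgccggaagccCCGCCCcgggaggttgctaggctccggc
Tfeb: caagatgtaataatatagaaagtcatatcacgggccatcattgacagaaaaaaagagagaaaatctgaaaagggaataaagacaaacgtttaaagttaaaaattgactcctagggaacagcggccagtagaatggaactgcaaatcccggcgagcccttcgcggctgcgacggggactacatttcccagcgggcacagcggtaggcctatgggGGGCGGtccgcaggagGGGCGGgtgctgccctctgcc
The GC boxes of Sqstm1 began 72, 53 and 33 bases before the start, those of Gabarapl2 84 and 28 bases before it and those of this Tfeb window 37 and 21 bases before it. GC content was 63.2% for Sqstm1, 57.2% for Gabarapl2 and 51.6% for Tfeb. A match is a description of the letters and not a bound site.

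Between daughters with more and with fewer lysosomes, neither receptor gene had an interval of the difference that left out 0. In the summed high daughters of each experiment Sqstm1 ran from 340.5 through a median of 510.8 to 656.5 CPM, and in the summed low daughters from 302.05 through 556.1 to 756.4 CPM. Values for the labels overlapped, and Sqstm1 was higher in the high daughters in 4 of 9 experiments. The log2 difference of high minus low was -0.03 ± 0.08 (SE), with a 95% interval of -0.21 to 0.15. Nbr1 had 59.01 to 81.8 CPM in high daughters and 38.99 to 90.99 CPM in low daughters. It was higher in the high daughters in 3 of 9 experiments, and the log2 difference was -0.07 ± 0.14 (interval -0.37 to 0.23). Experiment 69 stood apart, with a log2 difference of 1.07, and without it the estimate was -0.20.

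Among the ATG8 genes, Gabarapl1 had the difference between the labels that was largest relative to its error. Gabarapl1 ran from 104.95 through a median of 133.6 to 168.5 CPM in high daughters and from 115.4 through 166.3 to 175.9 CPM in low daughters. Values overlapped between the labels, but Gabarapl1 was lower in the high daughters in all experiments except experiment 76, that is higher in 1 of 9. Its log2 difference was -0.15 ± 0.06 (interval -0.29 to -0.02), and without 1 experiment at a time it stayed between -0.19 and -0.12. Gabarap had 131.3 to 288.5 CPM in high daughters and 132.6 to 287.5 CPM in low daughters, with a log2 difference of -0.11 ± 0.05 (interval -0.23 to 0.005) and higher values in the high daughters in 3 of 9 experiments. Gabarapl2, at 0.06 ± 0.12 (interval -0.20 to 0.31), and Map1lc3a, at -0.04 ± 0.18 (interval -0.42 to 0.34), were each higher in the high daughters in 5 of 9 experiments.

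Rb1cc1 ran from 74.7 through 85.8 to 108.9 CPM in high daughters and from 79.5 through 99.05 to 126.7 CPM in low daughters. The groups overlapped, with higher values in the high daughters in 2 of 9 experiments and a log2 difference of -0.15 ± 0.07 (interval -0.30 to 0.01). It was lower in the high daughters in all 5 experiments of run 4, at a log2 difference of -0.26, and at 0.0008 within run 5. That difference between runs was 0.26 ± 0.13, with an adjusted p of 1.0 for the interaction in edgeR. Tfeb, at 0.03 ± 0.20 (interval -0.40 to 0.46), had the widest spread over experiments, from -0.82 to 1.17. Tfe3 was at 0.15 ± 0.11 (interval -0.08 to 0.38) and higher in the high daughters in 6 of 9 experiments.

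None of the 9 members passed the test for lysosome inheritance. In edgeR's quasi-likelihood test on counts summed per experiment and label, with the experiment as block, the Benjamini-Hochberg adjusted p was 0.999 for each. The background was as empty, since 0 of 15854 genes passed (0%) and 658 (4.15%) had an unadjusted p under 0.05. By DESeq2 5 genes passed, none of them a member. Only Gabarapl1 among the members had an unadjusted edgeR p under 0.05, at 0.032. Over divisions rather than experiments, limma gave Gabarapl1 a log2 difference of -0.07 ± 0.07 on the log2(CPM + 1) scale, with an adjusted p of 0.933.

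**Figure D3:**
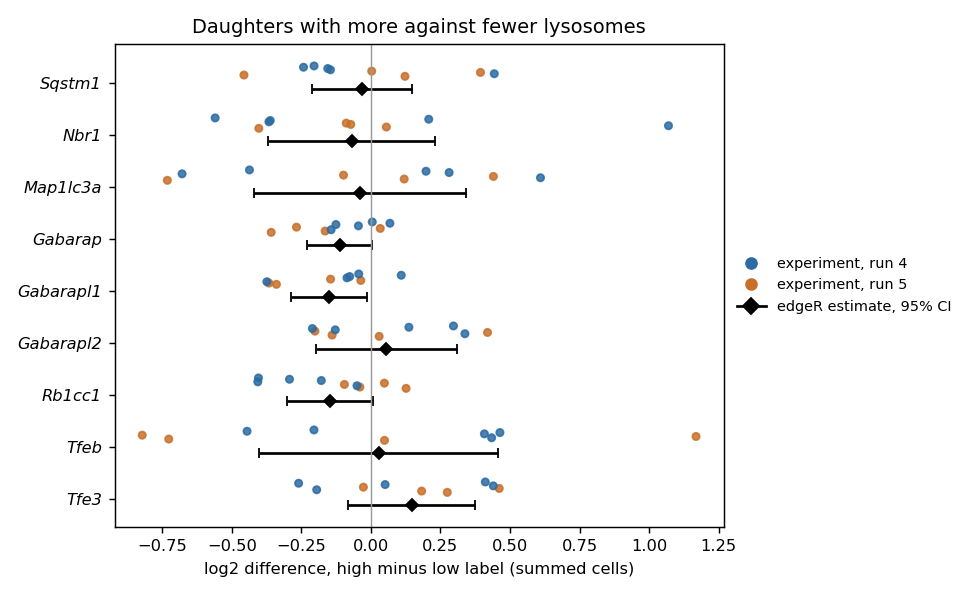
Log2 difference between high and low daughters (horizontal axis) for 9 genes. Coloured points are the 9 experiments, in blue for run 4 and orange for run 5, and black diamonds with bars are edgeR estimates with 95% intervals, which include 0 for every gene shown except Gabarapl1.

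Single divisions show how far sisters could differ. For Sqstm1, the division with the closest daughters had 485.6 CPM in the high and 482.1 CPM in the low daughter. In the division with the middle gap the daughters had 148.1 and 227.6 CPM, in that order. In the widest, in experiment 75, the high daughter had 3.06 CPM, from 3 counts, and the low daughter 256.8 CPM. Daughters were within 2-fold of each other in Sqstm1 in 72.9% of divisions, and in the other 55 the high daughter was higher in 24 and the low daughter in 31. For Gabarap 87.7% of divisions were within 2-fold, and in the other 25 the high daughter was higher in 6 and the low daughter in 19. For Gabarapl1 the 50 divisions outside 2-fold were split 25 and 25. For Tfeb only 30.05% of divisions were within 2-fold, and the rest were split into 73 with the high and 69 with the low daughter higher, at levels where few counts stand behind each value. Only the high daughter had a Tfeb count in 31 divisions, only the low daughter in 26 and neither in 9.

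The rest of the pathway, in 8 lists of 95 genes besides the members, also held no gene that passed between the labels. Of these genes 94 were tested for inheritance, 0 passed in either direction, and the median log2 difference was 0.003, against -0.0008 over all 15854 genes tested. The 5 initiation genes, which include the member Rb1cc1, had a median of -0.14, with Ulk2, a kinase of that complex, at -0.27 ± 0.11 and Atg101 at -0.14 ± 0.12. Among 20 lysosomal genes known as TFEB targets the median was 0.004, with the smallest unadjusted p for Lamp1, a lysosome membrane protein, at -0.17 ± 0.05. Sgsh, a heparan sulfate hydrolase, was at -0.34 ± 0.14 and Atp6v1h, a subunit of the proton pump, at 0.11 ± 0.05. Of the other receptors Wdfy3, the adaptor ALFY, was at 0.22 ± 0.09. The adjusted p in edgeR was 0.999 for each of these genes. Ccpg1, a receptor of the endoplasmic reticulum, was at 0 in every cell, and its span too lies wholly under other genes.

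The experiments of the 2 runs overlapped for every member. Gabarap had 238.4 ± 32.1 CPM in run 4 (SD, n = 5) and 196.04 ± 54.97 CPM in run 5 (SD, n = 4), a log2 difference of -0.26 ± 0.17 (SE). Sqstm1 had 572.0 ± 103.6 CPM in run 4 and 472.3 ± 136.8 CPM in run 5, a log2 difference of -0.26 ± 0.19, and Map1lc3a was at -0.32 ± 0.22. Experiments 60 and 72 held the low values of run 5 for Gabarap and Sqstm1, while experiments 68 and 73 lay within the range of run 4 for both. For Map1lc3a experiment 73 was the lowest of run 5, at 10.04 CPM, and experiment 60 the highest, at 16.2 CPM. The other 6 members lay between -0.22 and 0.08. No member passed, with adjusted p from 0.568 to 0.938 in edgeR, and 0 of 15269 genes did (0%). An unadjusted p under 0.05 was seen for 1621 genes (10.6%), and DESeq2 called 96 genes, none of them a member. The sequencing run cannot be told apart from the culture experiments in it or from how their libraries were made.

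The clearest pattern among the members was in Sqstm1, which was high in daughters with few transcripts of replication genes. A G1/S score was taken as the mean log2(CPM + 1) of 15 genes, such as Mcm2 to Mcm7 and Pcna, that cells express around DNA replication, centred on experiment and plate. Over all cells Pearson's r between Sqstm1 and the score was -0.47 (Spearman's rho -0.44), and within the 9 experiments r ran from -0.68 through a median of -0.54 to -0.31. The cells share plates and libraries, both measures share each cell's total, and with the total and the number of detected genes regressed out r was -0.47. Of the 9548 genes with a count in at least 50% of cells, none had a lower r with this score, and the median gene was at 0.06. Gabarapl1, at -0.26, and Gabarap, at -0.24, had lower r than all but 0.785% and 1.28% of genes, while Tfeb, Tfe3 and Map1lc3a lay between 0.01 and 0.06. With a G2/M score of 15 mitotic genes Sqstm1 had r of -0.26.

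A group of cells lay at the low end of the score. A limit of -1, set after the plot was seen, left 80 cells below it and the rest above. The 80 cells came from every experiment, 4 to 15 in each, and had a median of 738175 counts and 9179 detected genes, against 856050.5 and 9991 above the limit. Sqstm1 had a median of 985.04 CPM below the limit (quartiles 686.6 and 1279) and 409.6 CPM above it (294.2 and 626.0). The median was higher below the limit in 9 of 9 experiments. The mean log2(CPM + 1) was higher below the limit by 1.18 ± 0.34 (SD over 9 experiments), from 0.79 to 1.75, where the median gene was at -0.23 and 1.16% of the 9548 genes had a larger difference. Among the cells above the limit r was -0.18, and among those below it -0.22. A cut on the score narrows its range and so weakens r in each part. These 2 values therefore cannot show which cells the relation rests on.

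Some other members were higher in the same cells by smaller amounts. Gabarapl1 had a median of 201.99 CPM below and 126.5 CPM above the limit, and a mean log2 difference of 0.62 ± 0.31 that was positive in 9 of 9 experiments. Gabarap had 271.1 against 200.5 CPM, with a mean log2 difference of 0.41 ± 0.29 that was positive in 8 of 9. For Rb1cc1 the difference was 0.41 ± 0.60 and for Nbr1 0.24 ± 0.54, each positive in 6 of 9 experiments. Gabarapl2 was at 0.30 ± 0.48, positive in 7 of 9, and Map1lc3a at 0.05 ± 0.72, positive in 4 of 9. Of the 9548 genes, 5.66% had a larger difference than Gabarapl1, 10.4% than Gabarap, 10.6% than Rb1cc1, 14.9% than Gabarapl2 and 18.0% than Nbr1. Tfeb, at 0.02 ± 0.97, and Tfe3, at -0.21 ± 1.10, were close to the median gene within their spread. These cells were defined by their transcripts and not by the study, so no test is given, and the cell cycle phase itself was not measured.

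**Figure D4:**
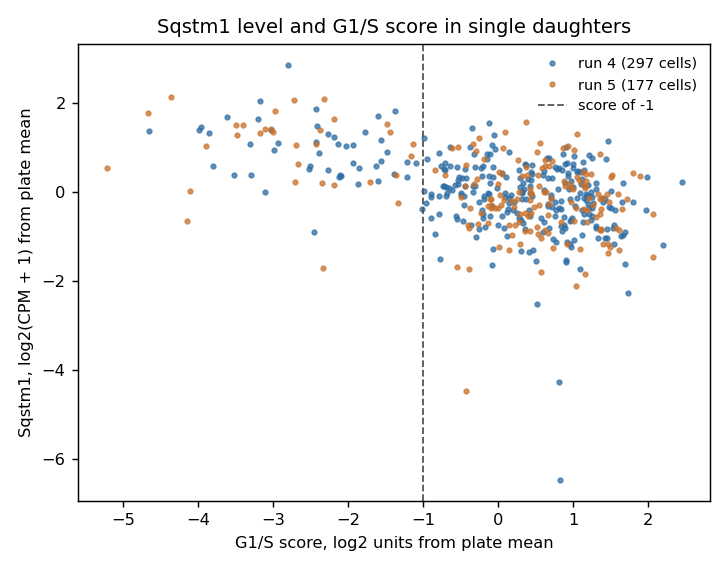
Sqstm1 level against G1/S score in single cells, both in log2 units from the mean of the experiment and plate, with run 4 in blue and run 5 in orange. The 80 cells left of the dashed line at -1 lie mostly above 0 for Sqstm1, and r over all cells is -0.47.

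Sisters could share a low score. At least 1 daughter lay below the limit in 43 divisions, both daughters in 26, only the high daughter in 7 and only the low daughter in 10. In sum 33 high and 36 low daughters of divisions lay below it.

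Whether sisters were more alike than unrelated cells was asked gene by gene, as the mean absolute difference in log2(CPM + 1) between unrelated cells that shared experiment and plate, minus that between sisters. A positive value means closer sisters. Sqstm1 had the largest value relative to its error among the members. Its sisters differed by 0.62 through a median of 0.71 to 0.997 over the experiments, and its unrelated cells by 0.79 through 0.94 to 1.23. The ranges overlapped between experiments, but sisters were closer in 9 of 9 experiments, by 0.20 ± 0.06 (SE), where the median of 11699 genes was 0.09. The intraclass correlation over all divisions, which is near 1 where sisters are alike, was 0.35, against a median of 0.09 over genes. In limma the adjusted p was 0.059, which misses the threshold of 0.05. By an exact sign-flip test over experiments it was 0.047, with an unadjusted p of 0.0039, the smallest that 9 experiments can give. Every gene with the same sign in all 9 experiments has this p, and the share of such genes is not given here. Over all alternatives the adjusted p of Sqstm1 ran from 0.0089 to 0.599.

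This likeness of sisters in Sqstm1 was smaller with cell cycle scores regressed out, as it was for the median gene. With both scores and their squares regressed out of each gene, the value was 0.06 ± 0.04, with an adjusted limma p of 0.416. The intraclass correlation of Sqstm1 was then 0.12. Over genes the median value went from 0.09 to 0.07 and the median intraclass correlation from 0.09 to 0.05. Whether the cell cycle accounts for the likeness was not tested. In the 160 divisions with no daughter below the limit of -1, sisters were closer by a mean of 0.07 ± 0.13 (SD over 9 experiments), in 7 of 9 experiments. With total and detected genes regressed out instead, the value was 0.16, with an adjusted p of 0.104 in limma. Against the fewer pairs of unrelated cells in adjacent wells it was 0.29, with an adjusted p of 0.164 in limma. Since all but 2 divisions had their daughters in adjacent wells, kinship and well position cannot be told apart except in that last comparison.

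Nbr1 gave another picture. Its sisters differed by 0.95 to 1.43 and its unrelated cells by 0.91 to 1.99, so sisters were closer by 0.17 ± 0.10, in 6 of 9 experiments, with an adjusted limma p of 0.307. Its intraclass correlation was 0.28, and 0.28 again with the cell cycle scores regressed out, where that of Sqstm1 was 0.12. A single experiment, 68, held a value of 0.92, and without it the mean was 0.08.

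For the ATG8 genes, sisters were closer in Gabarap by 0.09 ± 0.04, in 7 of 9 experiments, with an intraclass correlation of 0.22 and an adjusted limma p of 0.174. In Gabarapl1 the value was 0.07 ± 0.04, in 8 of 9 experiments. Gabarapl2, at 0.03 ± 0.06, and Map1lc3a, at 0.06 ± 0.10, had closer sisters in 4 and 3 of 9 experiments. Rb1cc1 was at 0.12 ± 0.06, Tfeb at 0.14 ± 0.10 and Tfe3 at 0.09 ± 0.06, in 6 of 9 experiments each. No member passed in limma, against 708 of 11699 genes (6.05%), and adjusted p for these 7 genes ran from 0.174 to 0.766.

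**Figure D5:**
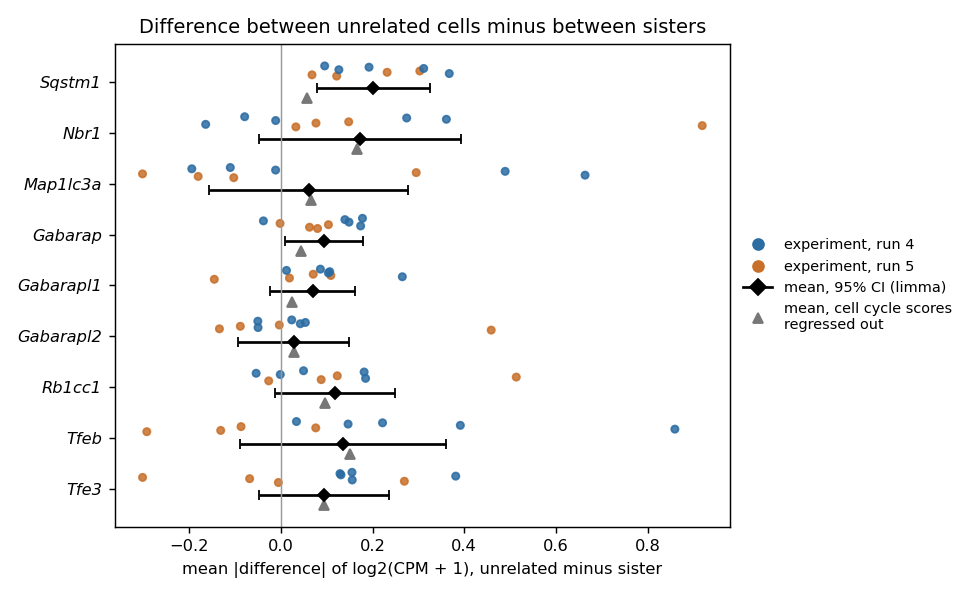
Mean absolute difference in log2(CPM + 1) between unrelated cells minus that between sisters (horizontal axis) for 9 genes, with points for the 9 experiments (blue run 4, orange run 5), black diamonds with bars for the mean and 95% interval in limma and grey triangles for the mean with cell cycle scores regressed out. All 9 points of Sqstm1 lie right of 0, and its triangle, at 0.06, lies left of its interval.

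In the rest of the pathway the median value was 0.09 over the lists, as over all genes. Over all genes 708 of 11699 (6.05%) had closer sisters by limma. In the lists the share was smaller, with 3 of 92 tested genes. They were Ctsd, the lysosomal protease cathepsin D, at 0.38 ± 0.07 (adjusted p 0.0078), Atg4d, a protease that processes ATG8 proteins, at 0.37 ± 0.09 (adjusted p 0.028), and Calcoco1, an autophagy receptor, at 0.54 ± 0.12 (adjusted p 0.020), all by limma. When experiment 75, 76 or 77 was left out 1 of the 92 passed, and the share of all genes in those fits is not given here. With cell cycle scores regressed out 0 of the 92 passed. An unadjusted limma p under 0.05 was seen for 14 of them, and the share over all genes is not given here. Ctsd was then at 0.25 ± 0.06, Calcoco1 at 0.32 ± 0.11 and Atg4d at 0.33 ± 0.10. Over all genes 82 of 11699 (0.701%) passed after that step. Atg14, a subunit of the class III PI3-kinase complex, was at 0.36 ± 0.10 with an adjusted limma p of 0.062. The median of the 20 TFEB target genes was 0.13 before and 0.07 after that step.

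Members covaried weakly over cells. With experiment, plate, total counts and number of detected genes taken out, r over all cells was 0.37 for Gabarap and Sqstm1, 0.28 for Gabarapl1 and Sqstm1 and 0.22 for Gabarap and Gabarapl1. The other 33 of the 36 pairs were below 0.2, and the median pair was at 0.06. These correlations describe cells that share libraries and plates.

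Among 9548 genes, those most like Sqstm1 over all cells were Neat1, a long noncoding RNA of nuclear paraspeckles, at r = 0.45, Eef2, a translation elongation factor, at 0.42, and Gstm1, a glutathione transferase, at 0.40. Those most like Gabarap were Anxa5, a phospholipid-binding annexin, at 0.45, Cstb, an inhibitor of cathepsins, at 0.45, and Gnai2, an inhibitory G protein subunit, at 0.43. For Nbr1 they were Tnrc6b, a partner of Argonaute proteins, at 0.41, Hbp1 at 0.37 and Klhl24 at 0.37. For Rb1cc1 they were Dock2 at 0.40, Crebrf at 0.39 and the glycosyltransferase gene Ogt at 0.36. For Gabarapl1 they were Ndufb11 at 0.30, Tmed9 at 0.29 and Sqstm1 itself at 0.28. For Gabarapl2 they were Fis1, a protein of mitochondrial fission, at 0.30, Arf1 at 0.28 and Pebp1 at 0.27. For Map1lc3a (Pon3, Gm26694 and Suco), Tfeb (Sgpl1, Srebf2 and Msn) and Tfe3 (Mrpl20, Trpc4ap and Aurkaip1) r lay between 0.17 and 0.21.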

How the data were processed

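The deposited tables hold counts, raw reads per gene and cell, made by the authors with featureCounts of Subread 1.5.0 and SAMtools, per the submitters' processing notes. Aligner, genome build and counting mode: not given in the sources used here. Symbols and positions came from GENCODE M21 (GRCm38), promoter windows from RefSeq. The deposited metadata tables hold other values, the authors' labels of experiment, plate, well, sister and lysosome inheritance. A further 171 count columns of no listed sample were left out. Every cell had at least 50000 counts and 1000 genes. Total counts per cell limit the precision of low genes, reads are not independent molecules, and Wilson intervals cover counting error only.

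The experiment was the replicate. Whether experiments used separate animals is not stated, so p-values measure the spread between cultures. Counts were summed per experiment and label, or per experiment, and tested with edgeR 4.0.16 (TMM, filterByExpr, quasi-likelihood). Sister likeness was tested with limma 3.58.1 (trend, robust) on genes with a count in at least 20% of cells, with a pseudocount of 1. P-values were adjusted by Benjamini-Hochberg over all genes tested, at a threshold of 0.05, two-sided. DESeq2 1.42.0 and other settings were alternatives. Scripts were tested on simulated data with 200 genes changed. Of genes changed 2-fold, edgeR recovered 46% in the inheritance design, with 3 false calls, and 55.5% in the run design, with 8. For sister likeness 100% of the genes given a part shared by sisters were recovered, with 4 false calls. That part had the same variance as the noise of each cell, in normal values without counts or zeros. The test on simulated data therefore does not show how often weaker likeness would be found, such as the median intraclass correlation of 0.09 over genes. All 10 members are named, and in the 8 lists of other genes up to 3 with the smallest unadjusted p per comparison. For each member the 3 genes with the highest r over cells are named. Members and lists were chosen with earlier results of these data known.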

Additional observations from a re-analysis of the deposited data

Results flagged for a closer look

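In 36 sets of values over the experiments, 5 had a highest or lowest experiment far from the others by Dixon's criterion, and chance alone gives about 5% of sets. Gabarapl2 in run 4 had 33.96 CPM in experiment 77, against at most 26.1 CPM in the other experiments of that run. For Gabarapl2 the unrelated minus sister difference was 0.4587 in experiment 60. For Nbr1 the log2 difference of high minus low was 1.07 in experiment 69. For Nbr1 the unrelated minus sister difference was 0.9188 in experiment 68. For Rb1cc1 it was 0.5134 in experiment 72, which has 11 divisions, the fewest of the 9 experiments. No cause was tested.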

How the results depend on the processing

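For lysosome inheritance, 12 values of members over the alternatives changed direction, and none passed the threshold. Without the block (no replicate block) 0 genes passed. DESeq2 called 5 genes. Tfeb was at -0.088 with cells without a sister added and at -0.1083 in run 5 alone, where Sqstm1 was at 0.0056 and Rb1cc1 at 0.0008. Without 1 experiment at a time Map1lc3a ran from -0.1154 to 0.0497, Sqstm1 from -0.0898 to 0.0245 and Tfeb from -0.109 to 0.134. For the runs, DESeq2 called 96 genes, leaving out 1 experiment gave 0 to 1 genes (1 without experiment 68), and Rb1cc1 ran from -0.0217 to 0.0867.

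For sister likeness, 6.05% of genes tested had closer sisters. The share was 2.31% with unrelated cells in adjacent wells and 0.701% with the cell cycle scores regressed out. It was 10.7% with a pseudocount of 10 and 3.03% without a filter, which tests more genes. With fewer experiments it was 1.84% in run 4 and 0.898% in run 5. Sqstm1 passed with 4 alternatives. By limma the adjusted p was 0.047 with a count in at least 50% of cells, 0.020 without a filter and 0.0089 with a pseudocount of 10. By the exact sign-flip test it was 0.047, where every gene with the same sign in all 9 experiments has the same p. In run 5 alone Map1lc3a was at -0.0723, Tfeb at -0.1084 and Tfe3 at -0.0263. Without 1 experiment at a time Gabarapl2 ran from -0.0256 to 0.0484 and Map1lc3a from -0.0144 to 0.1062. Of the other autophagy genes, 8 passed with a pseudocount of 10 and 0 with adjacent wells or within a run. When experiment 75, 76 or 77 was left out 1 of them passed, where the share of all genes is not given. Unless noted the cause was not tested. Few counts per cell limit Map1lc3a, Tfeb and Tfe3 most. The limit of -1 on the G1/S score and the interaction of run and label were chosen after the data were seen.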

Other observations

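Between the sequencing runs, the lysosomal genes known as TFEB targets lay lower in run 5, with a median log2 difference of -0.28 over 20 genes, where the median of all 15269 genes was 0.005, and 0 of the 20 passed in edgeR. Psap, which encodes the saposin precursor, was at -0.37 ± 0.15 (SE) and Ctsa, a protective lysosomal protein, at -0.46 ± 0.20. The ATG8 conjugation genes had a median of 0.11 over 11 genes, with Atg16l1 at 0.34 ± 0.12, Atg10 at 0.38 ± 0.16 and Atg7 at 0.27 ± 0.12. Of 94 other autophagy and lysosome genes tested, 0 passed and 11 had an unadjusted edgeR p under 0.05, against 10.6% of all genes tested. The adjusted p of these 94 genes in edgeR was 0.447 or above. Mcoln1, the lysosomal calcium channel gene, was at -0.42 ± 0.17, and Epg5, a tether for fusion, was at 0.92 ± 0.30 with 7.16 CPM on average. Runs 4 and 5 differ in spike-in share and in their culture experiments, which cannot be told apart.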
